A study of Aspergillus niger with 16 samples.

Results

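Among the 11580 genes of Aspergillus niger that had reads in at least 1 of 16 RNA-seq libraries, 47 were far higher in mycelium without *gaaR* than in reference mycelium under 2 of 4 growth conditions, and close to the reference in the other two. *gaaR* encodes the transcriptional activator of the response to D-galacturonic acid (GA). The 47 genes were chosen on the deposited FPKM values (reads scaled by coding length and by library total) with R, the log2 ratio of the mean FPKM + 1 of the ΔgaaR libraries to the mean FPKM + 1 of the reference libraries. A gene was kept where R was at least 2.5 after 2 h on GA and after 8 h on sugar beet pectin (SBP), and where R lay between −1 and 1 after 2 h and after 24 h on SBP. The tag NRRL3_05407 was left out by the same rule. Every value of R below therefore describes how the genes were chosen and carries no test.

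The ΔgaaR strain was CBS 141258 and the reference strain CBS 141257, and the labels give no further alleles for either. Each strain was sampled as mycelium after 2 h in 25 mM GA and after 2 h, 8 h and 24 h in 1% SBP, with 2 libraries per strain and condition. Before that, both strains had grown for 16 h in complete medium with 2% D-fructose, and 2.5 g of washed mycelium was moved to 50 ml of minimal medium at pH 6, shaken at 250 rpm and 30 °C. The labels do not say whether the 2 libraries of a group came from separate cultures, so the p-values below measure only the spread between these libraries, which may be technical. Each genotype was a single strain, so an effect of the deletion and any other difference between the strains cannot be told apart.

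Pectin is a plant cell wall polysaccharide whose backbone is rich in GA, and A. niger degrades it with secreted enzymes, takes up the GA and breaks it down in the cytoplasm. GaaR is a zinc cluster transcription factor that switches on the genes of these enzymes, of GA uptake and of GA breakdown, and the repressor GaaX holds it back when no GA-derived inducer is present. Strains without GaaR are known to grow poorly on GA as the only carbon source. The genes described here were higher without GaaR, the opposite direction to that of its known targets. The gene tags belong to the NRRL3 genome, the names of these 47 genes are not given in the sources used here, and the genes are therefore called by their tags with no role assigned.

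Library totals lay between 3203011 and 4574019 expected counts, and a library listed 10245 to 10857 genes. The FPKM values of the 2 libraries of a group had Pearson correlations of 0.972 to 0.988 across genes on the log2 scale. The tag taken for *gaaR*, NRRL3_08195, was recalled from publications on this regulator and not looked up. It had 0 to 30 reads in the 8 ΔgaaR libraries and 176 to 1984 reads in the 8 reference libraries. On GA the ΔgaaR libraries had 30 and 1 reads, against 176 and 241 in the reference libraries. At SBP 8 h they had 24 and 24 reads, against 497 and 514. The source of the reads on this tag in ΔgaaR libraries was not tested, which limits this check of the labels. The 5 genes of GA uptake and breakdown, with tags recalled in the same way, are well-known targets of GaaR. On GA their R ran from −5.96 for the transporter gene *gatA* to −3.997 for the reductase gene *gaaD*, the opposite sign to the 47 genes.

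On GA the median of the 47 genes' mean levels was 72.3 FPKM in ΔgaaR mycelium and 4.695 FPKM in reference mycelium. After 8 h on SBP it was 103.9 FPKM in ΔgaaR mycelium and 10.5 FPKM in reference mycelium. The strains lay close together at the other times on SBP, with medians of 35.0 FPKM in ΔgaaR and 32.0 FPKM in reference mycelium after 2 h, and of 51.7 FPKM in ΔgaaR and 47.2 FPKM in reference mycelium after 24 h. The low values thus stood in 2 reference groups, while the other 6 groups had medians of 32.0 FPKM or more. In bulk RNA, fewer cells that express a gene and less RNA per cell cannot be told apart.

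The reference groups on GA and at SBP 8 h held the lowest level of every one of the 47 genes, reference GA 2 h for 40 of them and reference SBP 8 h for 7. The highest level of a gene stood in ΔgaaR SBP 8 h for 32 genes, in ΔgaaR GA 2 h for 8, in ΔgaaR SBP 24 h for 3, in reference SBP 24 h for 2 and in each of the SBP 2 h groups for 1. Within reference mycelium, all 47 genes were higher after 2 h on SBP than after 2 h on GA. The median log2 ratio was 2.34, against 0.04 over all genes. Of the 47, 41 were lower in reference mycelium at SBP 8 h than at SBP 2 h, with a median log2 ratio of −1.41. Within ΔgaaR mycelium, 45 of the 47 were higher at SBP 8 h than at SBP 2 h, with a median log2 ratio of 1.501, and 34 were higher on GA than at SBP 2 h. The selection forces all the orders in this paragraph in part, so they are given as levels with no test.

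**Figure D1:**
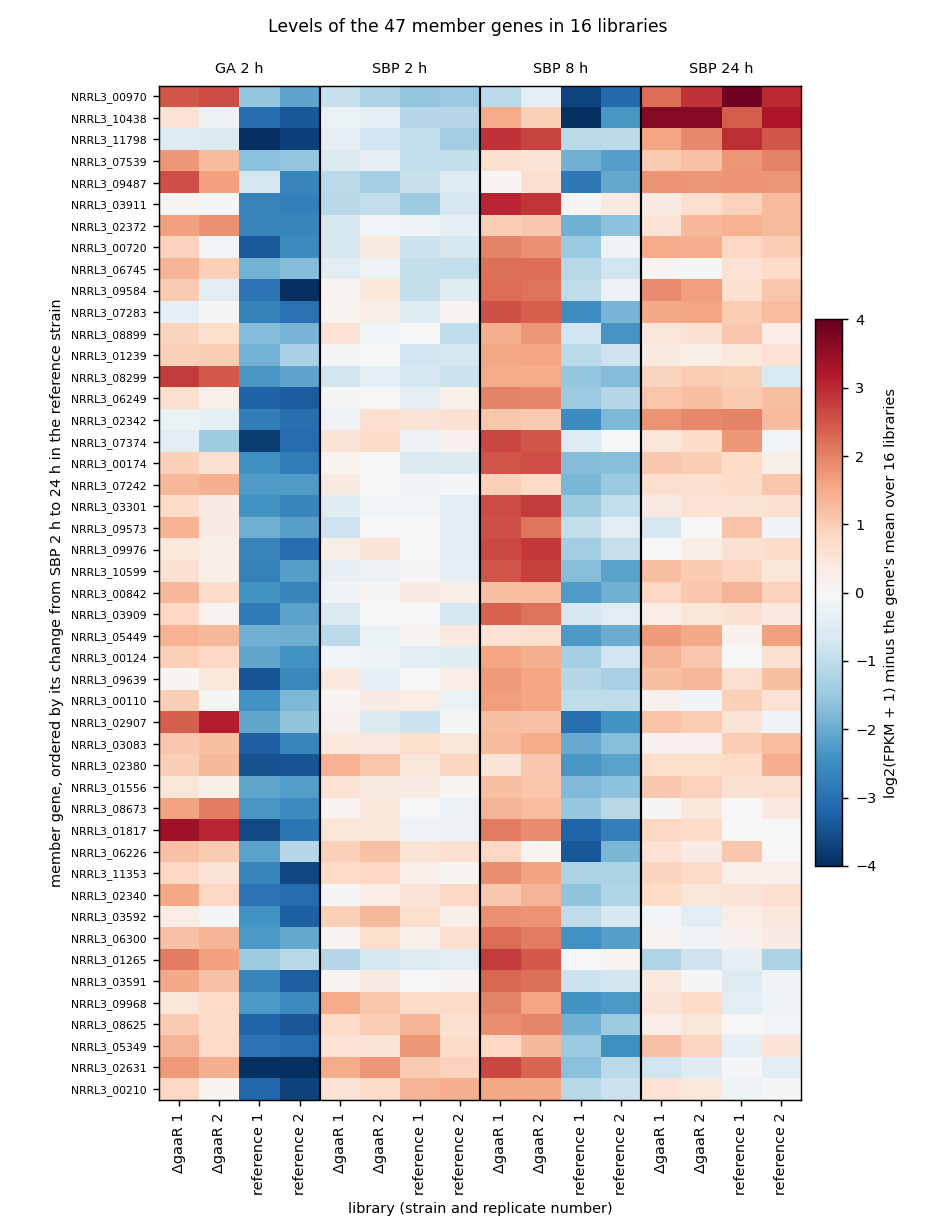
Level of each of the 47 genes (rows) in each of the 16 libraries (columns), as log2(FPKM + 1) minus the gene's mean over the libraries, with the colour scale ending at −4 and 4. In every row the lowest single library is a reference library of GA 2 h or SBP 8 h, while the 2 strains differ less at SBP 2 h and SBP 24 h. NRRL3_01265 was also low in both strains at SBP 2 h and SBP 24 h.

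Counted by reads, the 47 genes took 0.899% and 0.82% of the reads in the ΔgaaR GA libraries, against 0.059% and 0.058% in the reference GA libraries. At SBP 8 h they took 1.373% and 1.307% in ΔgaaR and 0.123% and 0.152% in reference mycelium. At SBP 2 h the shares were 0.558% and 0.563% in ΔgaaR and 0.449% and 0.456% in reference mycelium, and at SBP 24 h they were 0.666% and 0.66% in ΔgaaR and 0.605% and 0.67% in reference mycelium. In the reference GA libraries 7 and 8 of the genes had 3 reads or fewer, as did 4 and 3 in the reference SBP 8 h libraries and none in the other 12 libraries, so the ratios of those genes are the least certain.

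R ran from 2.51 to 6.45 on GA, with a median of 3.37, and from 2.51 to 4.92 at SBP 8 h, with a median of 2.99. Inside the bound, the median R was 0.27 at SBP 2 h, with 30 genes above 0 and 17 below, and −0.01 at SBP 24 h, with 23 above and 24 below. Over all 11580 genes the medians of R were 0.11 at GA 2 h, 0.04 at SBP 2 h, 0.00 at SBP 8 h and 0.13 at SBP 24 h. Both ΔgaaR libraries lay above both reference libraries for all 47 genes on GA and for all 47 at SBP 8 h, where over all genes 36.4% and 33.7% did so. The selection used these contrasts, so nothing is read from that count. At SBP 2 h both ΔgaaR libraries lay above both reference libraries for 23 genes and below them for 8, against 27.4% and 21.0% of all genes. At SBP 24 h this was so for 16 and for 14 of the 47, against 40.6% and 23.3% of all genes.

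Several genes stood just at the edge of the selection. R was 2.53 on GA and 2.51 at SBP 8 h for NRRL3_01239, 3.89 and 2.51 for NRRL3_00210, and 2.51 and 2.85 for NRRL3_01556, which are the 3 genes nearest to the limit from inside. Just outside were NRRL3_03765 with 2.99 and 2.48, NRRL3_06638 with 2.48 and 2.83, and NRRL3_10418 with 2.46 and 3.09. For 10 of the 47 genes the smaller of the 2 ratios was under 2.6, and for 6 the larger absolute R at SBP 2 h or SBP 24 h was above 0.9. Another 88 genes also reached 2.5 on GA and at SBP 8 h but left the bound at SBP 2 h or SBP 24 h. Of these, 48 had R of 1 or more at SBP 2 h, 46 had it at SBP 24 h and 18 at both, while 5 had R of −1 or less at SBP 2 h and 13 at SBP 24 h.

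The most abundant of the 47 genes was NRRL3_02380, with a coding length of 468 bases. It had 1367 and 1685 FPKM in the ΔgaaR GA libraries, against 60.4 and 61.3 in the reference GA libraries. At SBP 2 h it had 1809 and 1479.5 FPKM in ΔgaaR and 960.3 and 1239.7 in reference mycelium, at SBP 8 h 983 and 1449 in ΔgaaR and 136 and 156 in reference mycelium, and at SBP 24 h 1113 and 1120.3 in ΔgaaR and 1187 and 1899 in reference mycelium. In 12 of the 16 libraries the gene thus stood at 960.3 FPKM or more, and in the reference libraries of GA and SBP 8 h it stood at 60.4 to 156 FPKM.

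NRRL3_02631 and NRRL3_10438 had the widest spans of the 47 genes between the highest and the lowest group mean of FPKM + 1, each close to 118-fold, and low genes span less on this scale than on FPKM itself. The level of NRRL3_02631 was 1193 and 976 FPKM in ΔgaaR and 17.4 and 16.1 in reference mycelium on GA, an R of 5.94. It was 2329 and 1841 FPKM in ΔgaaR and 115 and 173 in reference mycelium at SBP 8 h. At SBP 2 h it was 1037 and 1251 FPKM in ΔgaaR and 753 and 695 in reference mycelium, and at SBP 24 h it was 209.8 and 259.9 in ΔgaaR and 346 and 265 in reference mycelium. At SBP 24 h both strains thus stood well below their own levels at SBP 2 h.

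The largest R belonged to NRRL3_01817, at 6.45 on GA and 4.92 at SBP 8 h. It had 368 and 289.6 FPKM in ΔgaaR and 1.85 and 3.71 in reference mycelium on GA, and 142 and 129 in ΔgaaR and 2.81 and 4.23 in reference mycelium at SBP 8 h. At SBP 2 h it had 47.6 and 46.9 FPKM in ΔgaaR and 29.4 and 28.4 in reference mycelium, and at SBP 24 h 60.7 and 56.8 in ΔgaaR and 33.9 and 33.9 in reference mycelium. The libraries of the 2 strains did not overlap in any of the 4 conditions, and at SBP 2 h and SBP 24 h the gene stood at an intermediate level in both strains.

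Among the other abundant genes, NRRL3_07242, NRRL3_01556 and NRRL3_01239 were never scarce. NRRL3_07242 had 864 and 923 FPKM in ΔgaaR and 70.0 and 69.7 in reference mycelium on GA, and 663 and 595 in ΔgaaR and 95.7 and 121 in reference mycelium at SBP 8 h. NRRL3_01556 had 456 and 379.8 FPKM in ΔgaaR and 76.2 and 68.5 in reference mycelium on GA, and NRRL3_01239 had 467 and 468 in ΔgaaR and 62.9 and 97.2 in reference mycelium. All 3 thus kept more than 60 FPKM in the lowest reference libraries. NRRL3_03591, NRRL3_00174, NRRL3_09968, NRRL3_00210 and NRRL3_06249 went lower, to between 7.90 and 26.2 FPKM in the reference GA libraries, and stood between 102 and 417 FPKM in the ΔgaaR GA libraries. NRRL3_09584 was the least steady of the 12, with 156 and 55.1 FPKM in the ΔgaaR GA libraries and 8.88 and 0.95 in the reference GA libraries.

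**Figure D2:**
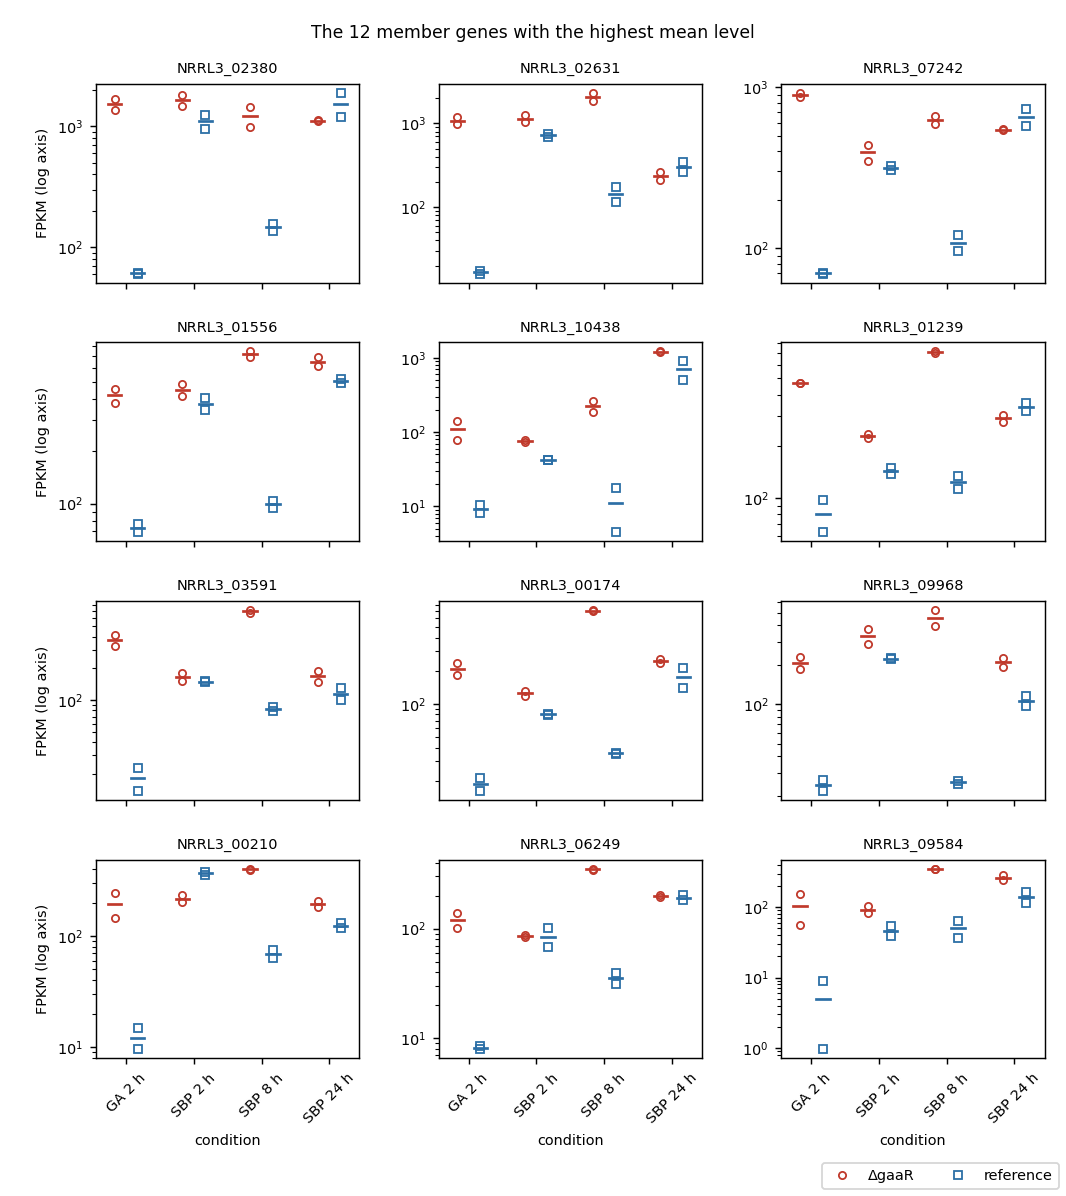
FPKM on a log axis for the 12 genes of the 47 with the highest mean over all libraries, by condition, with ΔgaaR (circles) left of reference (squares). Each point is 1 library and each bar the mean of 2; the reference points on GA and at SBP 8 h lie below the ΔgaaR points in every panel.

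To place the levels at which the strains met, a scale was set for each gene on log2(FPKM + 1). Its value 0 is the mean of the reference groups GA 2 h and SBP 8 h, its value 1 the mean of the ΔgaaR groups GA 2 h and SBP 8 h, and a position is the mean of both strains on that scale. The selection itself chose genes for the distance between these end points, so the positions are a description with no test. At SBP 2 h the median position was 0.592, with 31 genes above 0.5, which is nearer to the high level, and 16 below it. At SBP 24 h the median was 0.822, with 44 genes above 0.5 and 3 below, and 11 genes were above 1. In all, 29 genes were nearer to the high level at both times and 15 moved from nearer the low level at SBP 2 h to nearer the high level at SBP 24 h. NRRL3_02631 and NRRL3_03591 did the reverse, and NRRL3_01265 was nearer to the low level at both times.

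The extremes of that scale were distinct genes. NRRL3_01265, singled out after its values were seen, had a position of −0.032 at SBP 2 h and −0.093 at SBP 24 h. It had 19.3 and 14.4 FPKM in ΔgaaR and 0.83 and 1.28 in reference mycelium on GA, and 1.14 and 1.78 in ΔgaaR and 2.88 and 1.05 in reference mycelium at SBP 24 h. At the other end, NRRL3_10438 and NRRL3_00970 had positions of 1.667 and 1.601 at SBP 24 h, where the mean of both strains lay above the mean of the ΔgaaR groups on GA and at SBP 8 h. NRRL3_02342 was above 1 at both times, with 1.022 at SBP 2 h and 1.483 at SBP 24 h.

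**Figure D3:**
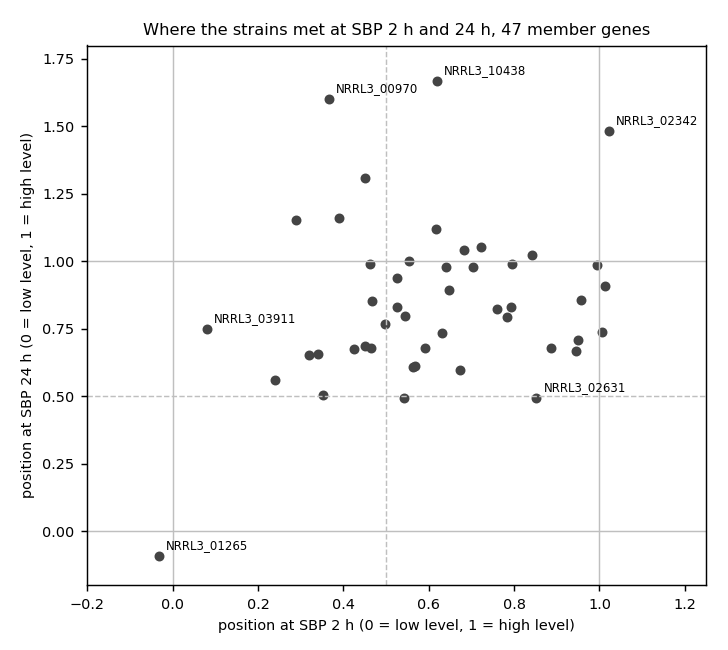
Position of each of the 47 genes at SBP 2 h (x axis) and at SBP 24 h (y axis) between its low level (0) and its high level (1); each point is 1 gene and dashed lines mark 0.5. Most points lie above 0.5 on the y axis (44 of 47), while on the x axis 16 lie below it.

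The selection does not set the times on pectin against each other within a strain, so these changes could be tested. In ΔgaaR mycelium 18 of the 47 genes were higher at SBP 24 h than at SBP 2 h, 9 were lower and 20 did not pass the test (edgeR's quasi-likelihood test over 10003 genes with Benjamini-Hochberg adjustment, called at an adjusted p under 0.05). Over all genes tested 22.1% were called higher and 23.7% lower. In reference mycelium 22 of the 47 were higher, 6 lower and 19 did not pass, where over all genes 27.0% were called higher and 23.9% lower. The median log2 fold change of the 47 was 0.13 in ΔgaaR mycelium, against −0.07 over all genes, and 0.68 in reference mycelium, against 0.06 over all genes. With libraries scaled by their total counts in place of TMM, the median over all genes shifted up by 0.39 in ΔgaaR and 0.21 in reference mycelium. The counts of the 47 were then 22 higher and 3 lower in ΔgaaR, and 25 higher and 5 lower in reference mycelium. The share of higher genes among all calls went with it, at 70.0% in place of 48.3% in ΔgaaR and 64.1% in place of 53.1% in reference mycelium. With any 1 of the ΔgaaR libraries compared left out, fewer of the 47 were called lower, and fewer of all genes tested as well.

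Gene by gene, 17 of the 47 were called higher at SBP 24 h in both strains and 4 lower in both, while 14 were called in neither. Over all genes tested 12.5% were called higher in both strains and 13.6% lower in both, and the share called in neither was not counted. One gene, NRRL3_09976, was called in opposite directions, with a log2 fold change of −0.65 in ΔgaaR and 0.71 in reference mycelium. The fall in ΔgaaR was small, with an adjusted p of 0.034 in edgeR's test. Its FPKM values there overlapped, at 19.6 and 24.4 at SBP 24 h and 23.7 and 29.3 at SBP 2 h. Alternatives are not given for this gene, so the opposite directions are uncertain. Because R had to stay between −1 and 1 at both times, the changes of the strains could differ by no more than about 2 on the log2 scale. Their likeness is therefore no separate finding, and whether a change differed between the strains was not tested.

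NRRL3_00970 and NRRL3_10438 rose most between SBP 2 h and SBP 24 h in both strains. NRRL3_00970 had 167 and 266 FPKM in ΔgaaR mycelium at SBP 24 h, against 18.2 and 14.2 at SBP 2 h, a log2 fold change of 3.33 ± 0.38 (SE), adjusted p = 3.4e-06 in edgeR's test. In reference mycelium it had 528 and 283 FPKM at 24 h, against 11.1 and 11.8 at 2 h, a log2 fold change of 4.94 ± 0.41 (SE), adjusted p = 1.02e-07. Its libraries at 24 h were far above those at 2 h in both strains. NRRL3_10438 had 1207 and 1218 FPKM in ΔgaaR mycelium at 24 h, against 77.9 and 73.3 at 2 h, a log2 fold change of 3.60 ± 0.36 (SE), adjusted p = 8.48e-07. In reference mycelium it had 505 and 896 FPKM at 24 h, against 42.1 and 42.5 at 2 h, a log2 fold change of 3.84 ± 0.37 (SE), adjusted p = 5.44e-07. It was the most abundant of the 47 genes in ΔgaaR mycelium at 24 h.

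NRRL3_11798 had 77.5 and 97.5 FPKM at SBP 24 h in ΔgaaR mycelium, against 19.9 and 14.3 at SBP 2 h, a log2 fold change of 1.94 ± 0.27 (SE), adjusted p = 2.46e-05 in edgeR's test. In reference mycelium it had 200.2 and 146 FPKM at 24 h, against 12.3 and 8.94 at 2 h, a log2 fold change of 3.83 ± 0.29 (SE), adjusted p = 4.27e-08. The reference libraries had the higher level at 24 h, at an R of −0.98, right at the bound. NRRL3_07539 had log2 fold changes of 1.23 ± 0.19 (SE) in ΔgaaR and 2.75 ± 0.20 (SE) in reference mycelium, and NRRL3_09487 had 2.96 ± 0.52 (SE) in ΔgaaR and 2.50 ± 0.49 (SE) in reference mycelium. NRRL3_03911 had 1.41 ± 0.33 (SE) in ΔgaaR and 2.15 ± 0.32 (SE) in reference mycelium, the second of which came to 2.73 without reference SBP 2 h replicate 2. All 3 were called higher in both strains. NRRL3_06249, NRRL3_02342, NRRL3_07283, NRRL3_09584, NRRL3_00174 and NRRL3_02372 were called higher in both strains as well, with log2 fold changes between 0.57 and 1.63. Of these calls, those of NRRL3_06249 held with any 1 library left out. NRRL3_01239 and NRRL3_07242 were called higher in reference mycelium, at 1.05 ± 0.23 (SE) and 0.85 ± 0.24 (SE), while their values in ΔgaaR mycelium were −0.05 and 0.06. The call of NRRL3_07242 was lost without reference SBP 2 h replicate 1 (0.81, adjusted p = 0.066) and without reference SBP 24 h replicate 2 (0.66, adjusted p = 0.073).

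Several of the smaller rises lost their call with 1 library left out, in some cases at nearly the same fold change. NRRL3_02342 lost its call in reference mycelium without SBP 2 h replicate 1 (0.90) or SBP 24 h replicate 1 (0.55). NRRL3_07283 lost it in ΔgaaR mycelium without SBP 24 h replicate 2 (0.94) and in reference mycelium without SBP 2 h replicate 1 (0.87). The calls of NRRL3_09584 were lost in ΔgaaR mycelium without any 1 of the 4 libraries (1.05 to 1.21) and with limma on log2(FPKM + pseudocount) at a pseudocount of 1 or 0.1 (1.51 and 1.52), and in reference mycelium without SBP 2 h replicate 1 (1.18) or SBP 24 h replicate 2 (1.13), and with limma at a pseudocount of 0.1 (1.60). NRRL3_00174 lost its call in ΔgaaR mycelium without SBP 2 h replicate 2 (0.36) or either SBP 24 h library (0.56 and 0.58), without the filter on low counts (0.57) and with only the 4 libraries compared (0.65), and in reference mycelium without SBP 24 h replicate 1 (0.59). That of NRRL3_02372 was lost in ΔgaaR mycelium without either SBP 2 h library (1.00 and 1.41) or SBP 24 h replicate 2 (0.66) and with only the 4 libraries compared (1.26).

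NRRL3_02631 fell in both strains, with log2 fold changes of −2.66 ± 0.26 (SE), adjusted p = 7.15e-07 in edgeR's test for ΔgaaR mycelium, and −1.45 ± 0.25 (SE), adjusted p = 0.000186 for reference mycelium. NRRL3_09968 also fell in both strains, with log2 fold changes of −1.07 ± 0.25 (SE) in ΔgaaR and −1.28 ± 0.26 (SE) in reference mycelium. Its libraries held 191 and 227 FPKM at 24 h and 372 and 286 at 2 h in ΔgaaR, and 96.4 and 115 at 24 h and 220.4 and 226 at 2 h in reference mycelium. NRRL3_00210 fell in reference mycelium, to 118 and 130.3 FPKM at 24 h against 356 and 379.8 at 2 h, a log2 fold change of −1.77 ± 0.22 (SE), adjusted p = 6.32e-06. In ΔgaaR mycelium it was called at −0.54 ± 0.21 (SE), a call lost with any 1 of the 4 libraries left out (−0.59 to −0.49), with RLE (−0.45) or total count scaling (−0.15), with DESeq2 (−0.45), with limma at either pseudocount (−0.15), without the filter on low counts (−0.54), with crossed replicate numbers as a block, an alternative chosen after seeing the data (−0.54), and with only the 4 libraries compared (−0.47). NRRL3_03592 fell in ΔgaaR mycelium, to 26.1 and 21.0 FPKM against 56.6 and 71.1, a log2 fold change of −1.82 ± 0.25 (SE), adjusted p = 2.32e-05, while its value in reference mycelium was −0.33 with an adjusted p of 0.273. NRRL3_08625 had log2 fold changes of −0.92 ± 0.25 (SE) in ΔgaaR and −1.33 ± 0.25 (SE) in reference mycelium, both called, the first of which was lost without ΔgaaR SBP 24 h replicate 1 (−0.78, adjusted p = 0.074), with total count scaling (−0.53) and with limma at either pseudocount (−0.52 and −0.53).

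Other falls also lost their call with 1 library left out. NRRL3_05349 was called lower in reference mycelium at −1.41 ± 0.44 (SE), with 12.1 and 23.4 FPKM at 24 h and 55.9 and 27.3 at 2 h, but its value was −0.82 (adjusted p = 0.22) without reference SBP 2 h replicate 1 and −1.02 (adjusted p = 0.12) without reference SBP 24 h replicate 1. It was not called either with limma at a pseudocount of 0.1 (−1.21) or with only the 4 libraries compared (−1.43). NRRL3_02380 was called lower in ΔgaaR mycelium at −0.97 ± 0.29 (SE). That call was lost without ΔgaaR SBP 2 h replicate 1 (−0.65), without SBP 24 h replicate 1 (−0.92) or replicate 2 (−1.01), with total count scaling (−0.55) and with limma at either pseudocount (−0.55). NRRL3_03591 was called lower in reference mycelium at −0.58 ± 0.21 (SE), a call lost without either SBP 2 h library (−0.61 and −0.55), without SBP 24 h replicate 1 (−0.40), with total count scaling (−0.37) and with limma at either pseudocount (−0.38 and −0.39). The values of NRRL3_01556, NRRL3_01817, NRRL3_02340, NRRL3_03909, NRRL3_07374 and NRRL3_02907 at SBP 24 h against SBP 2 h lay between −0.42 and 0.94 and were called in neither strain.

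SBP 8 h and GA 2 h are the conditions in which the strains stood apart, and the genes' levels in them were also compared within each strain. The selection used these same libraries. Its limit of 2.5 was the same in both conditions, but 484 genes reached it on GA and 378 at SBP 8 h. The counts, medians and adjusted p-values of the 47 in this comparison therefore depend in part on the selection. They describe the chosen genes and cannot show a lean apart from it. The 2 conditions differ in both carbon source and time, which cannot be told apart here. In ΔgaaR mycelium 27 of the 47 genes were higher at SBP 8 h than on GA, 7 lower and 13 did not pass edgeR's test, against 23.0% called higher and 22.5% called lower over all genes. In reference mycelium 26 were higher, 2 lower and 19 did not pass, against 17.9% called higher and 13.6% called lower over all genes. The median log2 fold change was 0.88 in ΔgaaR mycelium, against 0.02 over all genes, and 1.11 in reference mycelium, against 0.03 over all genes. With total count scaling the median over all genes shifted up by 0.067 in ΔgaaR and 0.176 in reference mycelium, and the share of higher genes among all calls in reference mycelium was 69.0% in place of 56.9%. The 47 genes then had 29 higher and 6 lower in ΔgaaR, and 29 higher and 1 lower in reference mycelium. With any 1 of the reference libraries compared left out, fewer of the 47 were called higher, and fewer of all genes tested as well. Of the 47, 19 were called higher in both strains and 2 lower in both, against 7.73% and 6.51% of all genes tested. Another 7 were called in neither, and the share of all genes called in neither was not counted. NRRL3_08673 was called in opposite directions, at −0.66 in ΔgaaR and 1.07 in reference mycelium. The first call was borderline, with an adjusted p of 0.048 in edgeR's test, and alternatives are not given for this gene. The selection asked for R of at least 2.5 in both conditions, which ties the changes of the 2 strains to each other in part. Their likeness is therefore no separate finding here either, and whether a change differed between the strains was not tested.

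**Figure D4:**
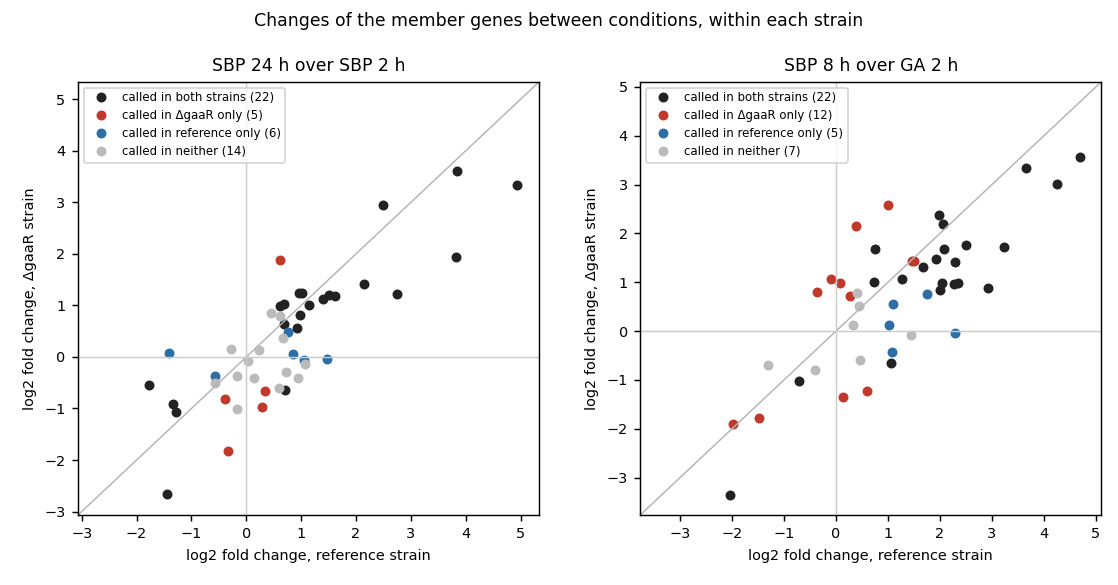
Log2 fold changes of the 47 genes within each strain, ΔgaaR on the y axis and reference on the x axis, for SBP 24 h over SBP 2 h (left) and SBP 8 h over GA 2 h (right); each point is 1 gene, its colour shows in which strain it was called, and the grey diagonal marks equal changes. The right panel leaves out NRRL3_02372, which had 3 reads or fewer in all reference libraries compared, and on the left the selection keeps points within about 2 of the diagonal.

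NRRL3_11798 again rose in both strains. It had 193 and 170.2 FPKM at SBP 8 h and 17.5 and 16.4 on GA in ΔgaaR mycelium, a log2 fold change of 3.35 ± 0.28 (SE), adjusted p = 2.57e-07 in edgeR's test, and 11.3 and 11.6 FPKM at SBP 8 h and 0.56 and 0.97 on GA in reference mycelium, a log2 fold change of 3.65 ± 0.47 (SE), adjusted p = 3.61e-05. Its level thus differed by condition in both strains while the ΔgaaR libraries stood above the reference libraries in both. NRRL3_07374 had 86.5 and 75.8 FPKM at SBP 8 h and 9.35 and 4.10 on GA in ΔgaaR mycelium, a log2 fold change of 3.57 ± 0.52 (SE), adjusted p = 4.8e-05. In reference mycelium it was called higher too, with 68 reads in both SBP 8 h libraries together and 2 in the GA libraries, both of them in replicate 2, a depth-scaled ratio of 32.0 with an exact 95% interval of 8.54 to 269.9. NRRL3_03911 had 76.9 and 67.7 FPKM at SBP 8 h and 9.11 and 7.92 on GA in ΔgaaR mycelium, a log2 fold change of 3.01 ± 0.29 (SE), adjusted p = 1.02e-06. In reference mycelium it was called higher with 95 reads at SBP 8 h and 4 on GA, a ratio of 22.4 with an exact 95% interval of 8.46 to 83.8. These intervals cover counting error only.

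NRRL3_07283 rose in ΔgaaR mycelium, to 80.5 and 72.1 FPKM at SBP 8 h against 10.2 and 13.4 on GA, a log2 fold change of 2.59 ± 0.29 (SE), adjusted p = 4.12e-06 in edgeR's test, while in reference mycelium it had 1.47 and 2.83 FPKM against 1.15 and 0.74 and did not pass the test. Of the abundant genes, NRRL3_00210, NRRL3_02631, NRRL3_03591, NRRL3_06249, NRRL3_09584 and NRRL3_00174 were called higher at SBP 8 h in both strains, with log2 fold changes of 0.84 to 1.72 in ΔgaaR and 0.75 to 3.24 in reference mycelium. The 3.24 of NRRL3_09584 rested on 8 and 1 reads in the reference GA libraries and was 2.35 without reference GA replicate 2. Without reference GA replicate 1 only 1 read was left, so no fold is given. The 1.72 of NRRL3_09584 in ΔgaaR mycelium was 2.44 without ΔgaaR GA replicate 1 and was not called with limma at a pseudocount of 0.1 (1.92). The call of NRRL3_00174 in reference mycelium (0.75) was lost without reference GA replicate 2 (0.60) and without either SBP 8 h library (0.80 and 0.71), and that of NRRL3_02631 in ΔgaaR mycelium (0.88) without ΔgaaR SBP 8 h replicate 1 (0.69). NRRL3_02340 was called higher in reference mycelium (2.29 ± 0.38 SE) and had a value of −0.04 in ΔgaaR mycelium, whereas NRRL3_09968 was called higher in ΔgaaR mycelium (1.06 ± 0.25 SE) and had a value of −0.10 in reference mycelium. NRRL3_08625, NRRL3_03592 and NRRL3_03909 were called higher in both strains, at 0.97, 1.68 and 1.77 in ΔgaaR and at 2.26, 2.07 and 2.50 in reference mycelium. The value in reference mycelium was 2.71 for NRRL3_03592 without GA replicate 1. NRRL3_03909 had 2 and 7 reads in the reference GA libraries, so no fold is given for it without GA replicate 2. NRRL3_02372 had 0 reads in both reference GA libraries and 2 and 3 reads in the reference SBP 8 h libraries, so no fold is given, and without it 25 of 46 genes were higher in reference mycelium, with a median of 1.09.

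The genes that were lower at SBP 8 h than on GA were fewer. NRRL3_00970 had 16.2 and 26.7 FPKM at SBP 8 h and 199.9 and 219 on GA in ΔgaaR mycelium, a log2 fold change of −3.36 ± 0.37 (SE), adjusted p = 3.87e-06 in edgeR's test, and 1.81 and 3.17 FPKM at SBP 8 h and 11.3 and 7.29 on GA in reference mycelium. The value in reference mycelium was −2.04 ± 0.67 (SE), a call lost without reference GA replicate 1 (−1.73) or SBP 8 h replicate 1 (−1.66). It was also lost without SBP 8 h replicate 2, where 3 reads were left at SBP 8 h and no fold is given. In ΔgaaR mycelium the gene thus had about the same level on GA at 2 h as on SBP at 24 h, and a level near that of SBP 2 h at SBP 8 h. NRRL3_01817 fell in ΔgaaR mycelium, with a log2 fold change of −1.34 ± 0.21 (SE), while its value in reference mycelium was 0.13 and did not pass. NRRL3_02907 had 31.2 and 30.4 FPKM at SBP 8 h and 72.5 and 122 on GA in ΔgaaR mycelium, a log2 fold change of −1.77 ± 0.39 (SE), which was −1.16 without ΔgaaR GA replicate 2. NRRL3_09487 was called lower in ΔgaaR mycelium at −1.91 ± 0.45 (SE), though not with limma at a pseudocount of 0.1 (−1.83), and NRRL3_07539 in both strains, at −1.02 ± 0.18 (SE) in ΔgaaR and −0.72 ± 0.23 (SE) in reference mycelium. The second of these was lost when any 1 of the 4 reference libraries was left out, at −0.85 to −0.59, with total count scaling (−0.54), with limma at either pseudocount (−0.46 and −0.53) and with only the 4 libraries compared (−0.76).

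The 88 genes that reached the same limits on GA and at SBP 8 h but left the bound at another time were read in the same fit. At SBP 24 h against SBP 2 h, 39 were called higher and 16 lower in ΔgaaR mycelium, and 50 higher and 19 lower in reference mycelium. Over all genes the shares were 22.1% and 23.7% in ΔgaaR, and 27.0% and 23.9% in reference mycelium. At SBP 8 h against GA, 45 were higher and 13 lower in ΔgaaR mycelium, and 35 higher and 1 lower in reference mycelium. Over all genes the shares were 23.0% and 22.5% in ΔgaaR, and 17.9% and 13.6% in reference mycelium. The difference between them and the 47 genes was not tested, and nothing in these counts is particular to the 47.

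By tag number, 41 of the 47 genes had no other of the 47 within 5 tags, and the other 6 formed 3 pairs. Genes outside the 47 were looked at only around these pairs. NRRL3_03591 and NRRL3_03592 have consecutive tags, with R of 4.28 and 2.87 on GA and of 3.06 and 2.64 at SBP 8 h, and the tags on either side had R between −0.41 and 1.60 in every condition. Their levels differed, with means over all libraries of 221 FPKM for NRRL3_03591 and 40.0 FPKM for NRRL3_03592. At SBP 24 h against SBP 2 h in ΔgaaR mycelium the first had a log2 fold change of −0.36, which did not pass, and the second −1.82, which was called.

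NRRL3_02340 and NRRL3_02342 have 1 tag between them, NRRL3_02341, whose mean level was 0.957 FPKM. NRRL3_02340 had 42.8 and 25.2 FPKM in ΔgaaR and 0.91 and 0.78 in reference mycelium on GA, and NRRL3_02342 had 7.87 and 7.25 in ΔgaaR and 0.59 and 0.34 in reference mycelium. The third pair, NRRL3_03909 and NRRL3_03911, also has 1 tag between them. NRRL3_03909 had 52.7 and 45.4 FPKM in ΔgaaR and 5.58 and 6.65 in reference mycelium at SBP 8 h. The gene between them, NRRL3_03910, had R of 3.35 at SBP 8 h and 1.67 on GA, and NRRL3_03908 on the other side had 3.56 at SBP 8 h and 0.20 on GA. At SBP 8 h, then, 4 genes with consecutive tags had R above 2.5, of which 2 reached it on GA as well.

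**Figure D5:**
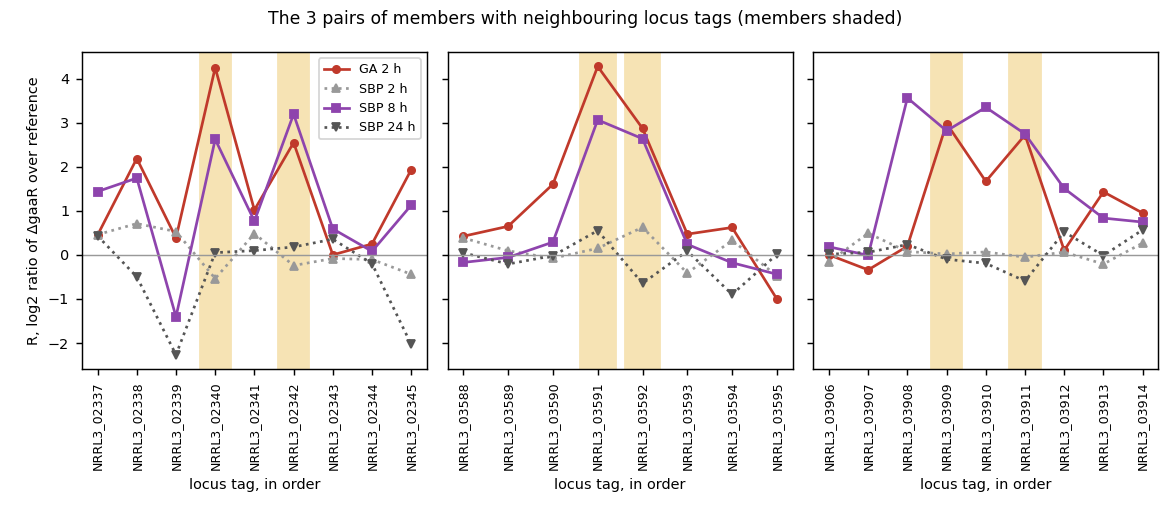
R, the log2 ratio of ΔgaaR over reference, in each of the 4 conditions for the 3 pairs of chosen genes with neighbouring locus tags (shaded) and the tags around them, in tag order. In the right panel the SBP 8 h line stays above 2.5 over 4 consecutive tags, NRRL3_03908 to NRRL3_03911.

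The coding lengths of the 47 genes ran from 288 bases for NRRL3_05349 to 3906 bases for NRRL3_03301, which is named for its length alone, with a median of 1335 bases, against a median of 1278 bases and a range of 75 to 21201 bases over all 11580 genes. NRRL3_09584 and NRRL3_10438, both among the 12 most abundant, were also short, at 306 and 321 bases. FPKM divides by this length, so a short gene rests on fewer reads at the same FPKM.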

How the data were processed

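The 16 libraries hold total RNA of mycelium, made with Illumina protocols, and the labels gave the groups and the replicate numbers. Each file held 1 library. Per the file headers, the authors deposited expected counts without normalization, and 548 of 168277 listed values were not whole. They also deposited FPKM values, which are reads scaled by gene length and library total. RSEM, Bowtie2 and BWA are named, with no versions or roles, per the submitters' processing notes. All lengths (100%) were multiples of 3, so they are coding lengths. A gene not listed in a file was taken as 0.

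After rounding, the expected counts went into edgeR's two-sided quasi-likelihood F test (edgeR 4.0.16, R 4.3.3) with TMM scaling and filterByExpr. All 16 libraries entered 1 fit with 1 mean for each of the 8 groups, with 8 residual and 7.76 prior degrees of freedom and a common dispersion of 0.0414. Benjamini-Hochberg adjustment ran over the 10003 genes tested, all 47 among them, with calls at an adjusted p under 0.05, and each adjusted p printed is edgeR's. Standard errors are the absolute log2 fold change over the square root of F. Fold changes with 3 reads or fewer in each library of 1 group depend on the prior count, so a ratio of summed reads with an exact 95% interval is given in their place.

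The members and lists were chosen with earlier results of these data known. The 4 contrasts of ΔgaaR with reference chose the genes and were not tested. Named are the 12 genes with the highest mean FPKM, up to 4 called genes with the largest change in each direction of each tested comparison, genes with neighbouring tags and those at the threshold, 28 in all, and others are said to be chosen after their values were seen or stand in a count of opposite calls. Alternatives were RLE and total count scaling, DESeq2 1.42.0, limma 3.58.1 on log2(FPKM + 1) and log2(FPKM + 0.1), no filter, only the 4 libraries compared, a replicate block and leaving out each library. The steps were checked on simulated counts. Python 3.11.15 with pandas 2.3.3, scipy 1.17.1 and matplotlib 3.10.9 did the rest. Sequences and gene roles were not used here.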

Additional observations from a re-analysis of the deposited data

Results flagged for a closer look

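Leaving out NRRL3_02372, which had 3 reads or fewer in every reference library on GA and at SBP 8 h, in 5 of the 47 genes every library moved one way in ΔgaaR mycelium and the opposite way in reference mycelium between 2 conditions. How many of all genes did so was not counted, so nothing is read from that number of genes. The differences between the strains were not tested, the selection used these same libraries, and the values are changes of the group mean on log2(FPKM + 1). At SBP 24 h against SBP 2 h, NRRL3_05349 changed by 0.466 in ΔgaaR and by −1.183 in reference mycelium, and NRRL3_03083 by −0.249 in ΔgaaR and by 0.537 in reference mycelium. FPKM is scaled by library totals and not by TMM. In edgeR's test with TMM the ΔgaaR change of NRRL3_05349 was only 0.08 (adjusted p = 0.894). Total count scaling in place of TMM shifted the ΔgaaR median over all genes up by 0.39 in this comparison. At SBP 8 h against GA 2 h, NRRL3_07242 changed by −0.506 in ΔgaaR and by 0.628 in reference mycelium. In the same comparison NRRL3_08299 changed by −1.151 in ΔgaaR and by 0.586 in reference mycelium, and NRRL3_08673 by −0.549 in ΔgaaR and by 1.13 in reference mycelium. In edgeR's test NRRL3_08673 was called in both strains, NRRL3_03083 and NRRL3_08299 in ΔgaaR mycelium, NRRL3_05349 in reference mycelium and NRRL3_07242 in neither. The call of NRRL3_08673 in ΔgaaR mycelium was borderline, at an adjusted p of 0.048.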

How the results depend on the processing

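The number of genes chosen depended on the rule's own settings. A pseudocount of 0.1 gave 80 genes (46 of the 47 among them), a pseudocount of 5 gave 19 (17 of the 47), a threshold of 2 gave 101, a threshold of 3 gave 17 and a bound of 0.5 gave 16. Leaving out 1 library gave 36 to 56 genes, and 19 of the 47 were kept in all 16 such selections. FPKM divided by TMM factors gave 47 genes, 41 of them the same.

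For SBP 24 h against SBP 2 h in ΔgaaR mycelium, the 9 lower genes came to 3 with total count scaling and with limma at either pseudocount, and to 4 to 6 with 1 library left out. The share of all genes called lower fell as well, from 23.7% to 13.4% with total count scaling and to 13.0% and 12.4% with limma. For SBP 8 h against GA 2 h in reference mycelium, the 26 higher genes came to 16 to 23 with 1 library left out. The 2 lower genes came to 1 with total count scaling, with limma at either pseudocount and with only the 4 libraries compared, to 4 with DESeq2, and to 0 to 2 with 1 library left out. Where edgeR called 0 there, 1 to 4 of the genes were lower at an unadjusted p under 0.05. In this comparison 13.6% of all genes were called lower in the main test. The share was 9.8% with total count scaling, 9.9% and 8.7% with limma, 21.8% with only the 4 libraries and 14.0% with DESeq2. The other counts stayed within 1.5 times. Over all genes tested, leaving out 1 library also lowered the number called in each of the cases above. Of 941 alternative values for the 77 calls of named genes, 853 stayed called, 88 lost the call and 0 changed sign. The causes were not tested.

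The labels do not say whether equal replicate numbers pair the libraries, and the main test did not pair them. With a replicate block, 18 genes were higher and 9 lower at SBP 24 h against SBP 2 h in ΔgaaR, 21 and 6 in reference mycelium, and 27 higher and 8 lower at SBP 8 h against GA 2 h in ΔgaaR, 26 and 2 in reference mycelium. In the same order, the block called 22.3% of all genes higher and 23.6% lower, 27.1% and 23.9%, 23.2% and 22.7%, and 17.9% and 13.7%. The deviations of the replicate 1 libraries correlated at −0.289 between ΔgaaR SBP 24 h and 2 h. A crossed replicate block, chosen after seeing the data, gave 18 higher and 8 lower, against 22.4% and 23.6% of all genes. The reference GA libraries held 3203011 and 3749516 expected counts and the reference SBP 8 h libraries 3772449 and 3604653. The other libraries held 3372824 to 4574019. The reference GA and SBP 8 h libraries also listed the fewest genes, 10245 to 10354 against 10452 or more in the others. Up to 8 of the 47 genes had 3 reads or fewer there.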
